A study of Mus musculus with 8 samples.

Results

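The genes described here are 42 coding genes that were strongly lost without Runx1 in mouse hemogenic endothelium, the endothelial cells from which definitive blood cells bud. RUNX1 is the DNA-binding partner of CBFB in the core binding factor, and it is known for its role in the step in which hemogenic endothelium turns into blood. Without it, embryos form vessels and hemogenic endothelium but no definitive blood stem or progenitor cells. RUNX1 binds short DNA words built around TGTGGT and can raise or lower the transcription of genes near its sites.

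The 42 genes were chosen by measured values. They are the rows of type protein-coding, outside chromosome 14, whose mean over 4 wt libraries was at least 1 RPKM and whose mean over 4 ko libraries was at most 0.25 of that wt mean. RPKM is a read count divided by transcript length and by library size, so levels of different genes are on 1 scale per length. The table that the authors deposited has 622 genes, of which 74 were coding genes that met both limits; 1 of them lay on chromosome 14 and 31 were left out by symbol as members of families such as the Hox, integrin, collagen and matrix metalloprotease genes or as single genes that the rule lists. The 42 that remain are therefore a mixed set, with transcription factors, receptors, secreted proteins, transporters, enzymes and cytoskeletal proteins among them. At the ratio limit, the members just inside were Tns1, Ptgs1 and Rprm, with ratios of 0.244, 0.244 and 0.245, and the rows just outside were Rusc2, Pmaip1 and Ccnd1, with a ratio marginally above 0.25 for Rusc2, and of 0.253 for Pmaip1 and 0.257 for Ccnd1. At the level limit, Crispld1 and Fas lay just inside, with wt means of 1.03 and 1.05 RPKM, and Sfrp1 and Adamts4 just outside, with 0.983 and 0.925 RPKM.

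Embryonic stem cells of strain 129 were differentiated in culture. FLK1+ cells were isolated from d3.25 embryoid bodies, grown for 2 days in liquid blast medium and sorted as cKIT+ TIE2+ CD41- cells, and total RNA depleted of ribosomal RNA was sequenced. The ko groups were the lines iDamko (iDam with Runx1-/-) and Ainv18ko (Ainv18 with Runx1-/-), and the wt groups were the lines iDam and BryGFP, both with a wt background, and each line has 2 libraries, described in the design text as biological duplicates. Each genotype thus rests on 2 lines. Ainv18ko has no wt line of the same name, so in that pair the line and the genotype cannot be told apart. Runx1 itself and the genes of the sort markers cKIT, TIE2 and CD41 were not analysed here, so the genotypes and the sort rest on the labels. Of 42 listed endothelial marker genes, the table holds Clec14a alone. Low values fell on steps of 1 read that imply depths of 42280000 to 58940000 reads per library, at which 1 read in a transcript of 1 kb is worth 0.0170 to 0.0237 RPKM.

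Each gene of the table has an FDR under 0.05 in the authors' comparisons of ko cells with both wt lines. The loss described here was also what chose the 42 genes, so the ko and wt values that follow are a description and carry no test. In all 42 genes every ko library was below every wt library, which was so for 61.6% of the 622 genes. The ratio of ko to wt mean was at most 0.25 in all 42 by the rule, and in 35% of the table. The median ratio over the 42 genes was 0.174, with a range from 0.0470 in Gm53 to 0.245 in Rprm, which is 21.3-fold to 4.08-fold lower in ko cells. In 4 genes the ratio was at most 0.1, in 25 it lay between 0.1 and 0.2, and in 13 above 0.2.

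Most of these genes were weakly expressed even in wt cells. The wt mean was under 2 RPKM in 24 genes, between 2 and 5 RPKM in 10, between 5 and 15 RPKM in 6, and above 15 RPKM only in Fxyd6 and Unc5c. The ko mean had a median of 0.309 RPKM, and in 33 genes every ko library was under 1 RPKM. The RNA came from bulk samples, where fewer cells of a type and less RNA per cell cannot be told apart.

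**Figure D1:**
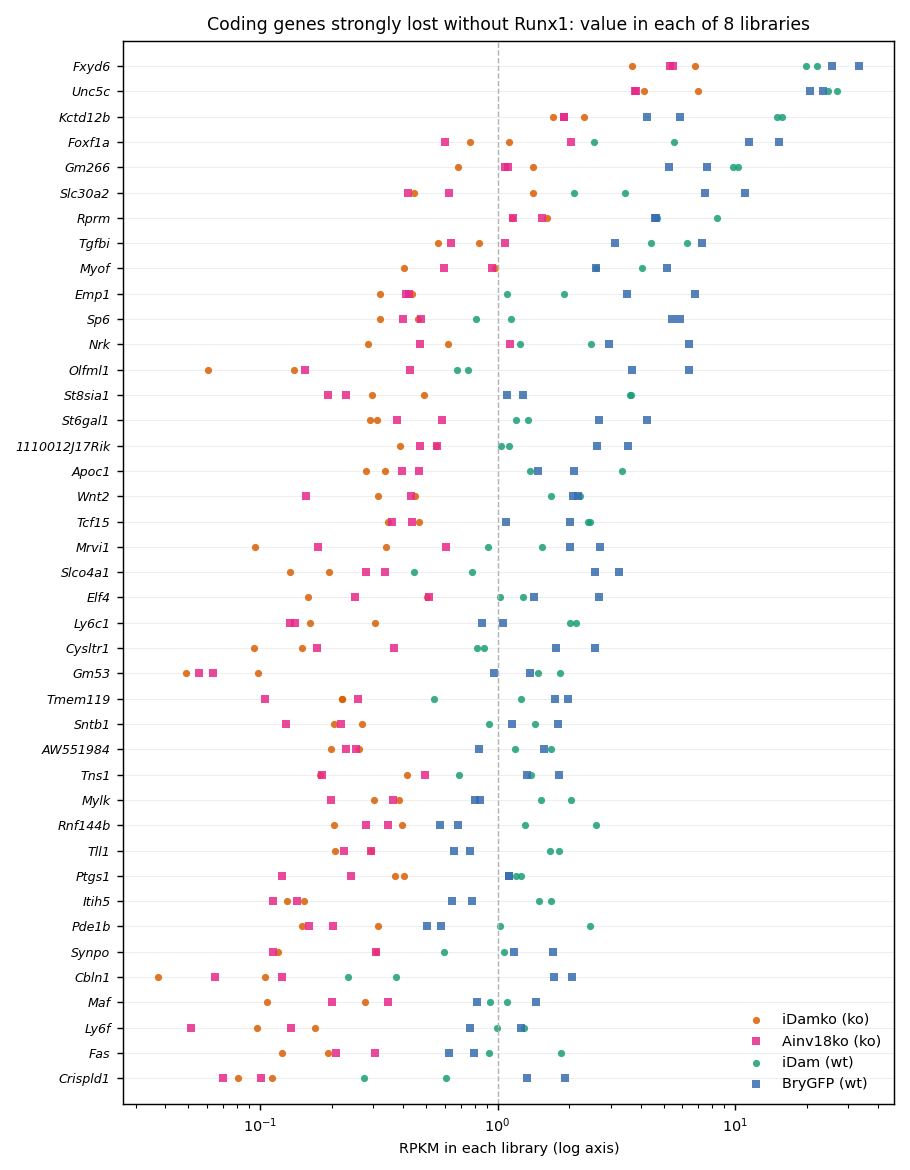
RPKM of 41 of the 42 genes in each of the 8 libraries, on a log axis, ordered by wt mean with the highest at the top; orange circles and pink squares are the ko lines iDamko and Ainv18ko, and green circles and blue squares the wt lines iDam and BryGFP, 2 libraries each. In each row the 4 ko points lie left of the 4 wt points, and the dashed line marks 1 RPKM, the limit for the wt mean.

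Short DNA words of the RUNX type were looked for in the promoters of the 42 genes, and 4 promoters that hold one are shown as examples. The RefSeq promoter table for GRCm38.p6, which covers 250 bases before to 50 bases after each start, matched 28 of the 42 genes with 40 windows. The words searched were TGTGGT and TGCGGT on both strands (ACCACA and ACCGCA on the other), which differ from each other at 1 base. The sequences are given 5′ to 3′ along the gene, in lower case with the RUNX word in capitals.
Unc5c (chr3:141465314-141465613, plus strand): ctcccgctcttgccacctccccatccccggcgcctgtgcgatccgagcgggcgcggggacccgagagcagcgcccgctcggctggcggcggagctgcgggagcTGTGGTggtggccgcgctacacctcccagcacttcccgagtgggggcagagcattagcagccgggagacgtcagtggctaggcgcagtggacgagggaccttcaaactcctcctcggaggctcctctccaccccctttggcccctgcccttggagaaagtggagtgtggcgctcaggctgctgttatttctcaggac
Slc30a2 (chr4:134343216-134343515, plus strand): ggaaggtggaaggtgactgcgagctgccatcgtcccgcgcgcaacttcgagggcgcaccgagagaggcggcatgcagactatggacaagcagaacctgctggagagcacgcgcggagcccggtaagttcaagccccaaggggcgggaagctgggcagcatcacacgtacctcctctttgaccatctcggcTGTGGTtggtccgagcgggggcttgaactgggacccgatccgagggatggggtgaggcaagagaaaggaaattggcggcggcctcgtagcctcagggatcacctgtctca
Emp1 (chr6:135362681-135362980, plus strand): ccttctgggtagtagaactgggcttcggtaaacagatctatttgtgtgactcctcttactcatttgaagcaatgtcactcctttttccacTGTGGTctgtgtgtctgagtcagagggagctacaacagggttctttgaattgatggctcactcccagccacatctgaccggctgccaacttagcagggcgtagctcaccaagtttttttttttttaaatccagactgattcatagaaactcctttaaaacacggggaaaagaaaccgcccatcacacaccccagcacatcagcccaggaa
Itih5 (chr2:10153293-10153592, plus strand): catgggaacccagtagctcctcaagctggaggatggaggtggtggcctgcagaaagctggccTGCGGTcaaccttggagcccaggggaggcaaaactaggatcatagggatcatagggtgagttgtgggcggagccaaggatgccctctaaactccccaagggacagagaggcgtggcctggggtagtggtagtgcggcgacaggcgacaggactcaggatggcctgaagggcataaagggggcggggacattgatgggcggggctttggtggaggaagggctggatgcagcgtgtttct
The word begins 147 bases before the RefSeq start of the window in Unc5c, a netrin receptor gene, and 60 before in Slc30a2, a zinc transporter gene. It begins 160 before in Emp1, an epithelial membrane protein gene, and 188 before in Itih5, a gene of the inter-alpha-trypsin inhibitor family. In GENCODE M21, Unc5c starts at 141465216, Slc30a2 at 134343181 and Emp1 at 135362545, before the whole window. By those positions the word lies inside these genes. Itih5 starts there at 10153571, after the word. Of the 40 windows, 9 held a word, which is 22.5% (95% Wilson interval 12.3 to 37.5). Of all 32851 promoters in the table, 22.4% did, so the share among these genes lies beside that of all promoters. Counted by gene, 8 of 28 genes (28.6%) and 25.0% of the 27025 genes in the promoter table had a word. The others were AW551984, Mylk, Myof and Pde1b. A match is a description of the letters and not evidence of a bound site, and binding was not measured in these libraries.

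Among transcription factors, 5 of the 42 genes were found. Foxf1a, named Foxf1 in GENCODE M21, is a forkhead factor of lateral plate and visceral mesoderm. It had 1.12 and 0.767 RPKM in iDamko and 2.03 and 0.599 RPKM in Ainv18ko, against 5.51 and 2.55 RPKM in iDam and 11.4 and 15.3 RPKM in BryGFP. The highest ko library was just under the lowest iDam library, and the wt lines stood apart, with both BryGFP libraries above both iDam libraries. In the authors' deposited table Foxf1a was 3.35-fold lower in ko than in iDam and 11.5-fold lower than in BryGFP. Tcf15, a bHLH factor known from somite formation, had 0.348 and 0.468 RPKM in iDamko and 0.436 and 0.361 RPKM in Ainv18ko, against 2.40 and 2.46 RPKM in iDam and 2.02 and 1.08 RPKM in BryGFP, where the 4 ko values lay close together and 1 BryGFP library was lower than the other wt libraries. Elf4, an ETS-family factor of blood cells, ranged over 0.160 to 0.517 RPKM in ko libraries and 1.03 to 2.66 RPKM in wt libraries. Maf, a bZIP factor of macrophages and lymphocytes, ranged over 0.107 to 0.346 RPKM in ko libraries and 0.822 to 1.46 RPKM in wt libraries. Sp6, a zinc-finger factor of the SP family known from teeth and limbs, had 0.321 and 0.464 RPKM in iDamko and 0.399 and 0.474 RPKM in Ainv18ko, against 1.14 and 0.809 RPKM in iDam and 5.44 and 5.85 RPKM in BryGFP. The 4 ko libraries of Sp6 were alike, the iDam libraries were somewhat higher, and BryGFP stood far above all others. The list of transcription and chromatin factors, drawn up by symbol, had 29 genes in the table, of which 19 were lower and 10 higher in ko cells; Foxf1a, Tcf15, Elf4 and Maf were in it, and the median ratio of the list was 0.376, against 0.365 over all 622 genes.

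Receptors and ligands included the gene with the second highest level of the set. Unc5c, a netrin receptor of axon and vessel guidance, had 4.15 and 6.95 RPKM in iDamko and 3.81 and 3.83 RPKM in Ainv18ko, against 26.8 and 24.6 RPKM in iDam and 23.4 and 20.7 RPKM in BryGFP. It averaged 4.68 ± 1.52 RPKM in ko libraries and 23.9 ± 2.54 RPKM in wt libraries (SD, n = 4 each), and both wt lines were at a similar level, while 1 iDamko library stood above the other 3 ko libraries. Wnt2, a secreted Wnt ligand, had 0.447 and 0.315 RPKM in iDamko and 0.432 and 0.156 RPKM in Ainv18ko, against 2.22 and 1.68 RPKM in iDam and 2.07 and 2.17 RPKM in BryGFP, and the 4 wt libraries were close to each other. Cysltr1, a receptor for leukotrienes, ranged over 0.0940 to 0.365 RPKM in ko libraries and 0.821 to 2.56 RPKM in wt libraries, and Fas, the death receptor, over 0.124 to 0.305 RPKM in ko libraries and 0.626 to 1.85 RPKM in wt libraries. The wt libraries of Fas were higher in iDam than in BryGFP, and those of Cysltr1 higher in BryGFP than in iDam.

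On the cell surface, 2 genes of the Ly6 family of lipid-anchored proteins were among the 42. Ly6c1, whose protein marks monocytes and some endothelium, had 0.304 and 0.162 RPKM in iDamko and 0.134 and 0.140 RPKM in Ainv18ko, against 2.13 and 2.03 RPKM in iDam and 0.857 and 1.06 RPKM in BryGFP. Ly6f had 0.170 and 0.0967 RPKM in iDamko and 0.0513 and 0.135 RPKM in Ainv18ko, against 1.29 and 0.998 RPKM in iDam and 0.769 and 1.25 RPKM in BryGFP. Their ratios of ko to wt mean were 0.122 and 0.105. The genes lie 0.220 Mb apart on chromosome 15 and belong to a family of near copies, so reads may be shared between them and their levels are uncertain to that extent. Tmem119, a membrane protein known from bone-forming cells and microglia, ranged over 0.105 to 0.258 RPKM in ko libraries and 0.540 to 1.98 RPKM in wt libraries. The list of immune receptors and leukocyte proteins had 9 genes in the table, 8 lower and 1 higher in ko cells, with a median ratio of 0.122.

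Secreted and matrix proteins made up another group. Tgfbi, a matrix protein that binds integrins and is induced by TGF-beta, had 0.839 and 0.561 RPKM in iDamko and 1.07 and 0.637 RPKM in Ainv18ko, against 6.27 and 4.41 RPKM in iDam and 3.12 and 7.29 RPKM in BryGFP. Its ko libraries were all near or under 1 RPKM, and the wt lines overlapped. Itih5, which stabilises hyaluronan in the matrix, had 0.129 and 0.153 RPKM in iDamko and 0.114 and 0.143 RPKM in Ainv18ko, against 1.49 and 1.69 RPKM in iDam and 0.643 and 0.783 RPKM in BryGFP, with iDam above BryGFP. Tll1, a metalloprotease of the tolloid family that activates BMP signalling, had 0.294 and 0.207 RPKM in iDamko and 0.292 and 0.225 RPKM in Ainv18ko, against 1.82 and 1.66 RPKM in iDam and 0.767 and 0.653 RPKM in BryGFP. Tll1 shared the order of Itih5, with both iDam libraries above both BryGFP libraries. Apoc1, an apolipoprotein, ranged over 0.281 to 0.467 RPKM in ko libraries and 1.37 to 3.33 RPKM in wt libraries.

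A run of 3 secreted proteins showed the lowest ratios after Gm53. Olfml1, a secreted olfactomedin-domain protein, had 0.139 and 0.0604 RPKM in iDamko and 0.427 and 0.154 RPKM in Ainv18ko, against 0.749 and 0.674 RPKM in iDam and 3.68 and 6.42 RPKM in BryGFP. Cbln1, a synapse organiser of the cerebellum, had 0.105 and 0.0373 RPKM in iDamko and 0.124 and 0.0649 RPKM in Ainv18ko, against 0.373 and 0.234 RPKM in iDam and 1.73 and 2.07 RPKM in BryGFP. Crispld1, a secreted cysteine-rich protein, had 0.0806 and 0.112 RPKM in iDamko and 0.101 and 0.0696 RPKM in Ainv18ko, against 0.608 and 0.275 RPKM in iDam and 1.33 and 1.92 RPKM in BryGFP. In all 3 genes BryGFP carried most of the wt level, and the iDam libraries lay between the ko libraries and BryGFP. The ratios of ko to wt mean were 0.0678 for Olfml1, 0.0752 for Cbln1 and 0.0878 for Crispld1. Against iDam alone they were weaker, at 0.140, 0.235 and 0.218 for iDamko over iDam in the same order. The list of matrix genes, proteases and inhibitors had 16 genes in the table, 13 lower and 3 higher in ko cells, and the Wnt, Hedgehog and TGF-beta/BMP list 12, 8 lower and 4 higher; Tgfbi is in both by its symbol, and Wnt2 in the second.

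Transporter genes included the highest level of the set. Fxyd6, a small regulator of the sodium-potassium pump, had 3.70 and 6.77 RPKM in iDamko and 5.49 and 5.34 RPKM in Ainv18ko, against 19.8 and 22.2 RPKM in iDam and 25.5 and 33.3 RPKM in BryGFP. It averaged 5.32 ± 1.26 RPKM in ko libraries and 25.2 ± 5.90 RPKM in wt libraries (SD, n = 4 each), and the highest ko library was far under the lowest wt library. Slc30a2, the vesicular zinc transporter known from secretion of zinc into milk, had 0.443 and 1.41 RPKM in iDamko and 0.420 and 0.625 RPKM in Ainv18ko, against 2.10 and 3.44 RPKM in iDam and 7.44 and 11 RPKM in BryGFP. Its ko libraries were all under 1.5 RPKM, and the order among wt libraries was BryGFP above iDam. Slco4a1, an organic anion transporter, had 0.195 and 0.133 RPKM in iDamko and 0.336 and 0.278 RPKM in Ainv18ko, against 0.446 and 0.778 RPKM in iDam and 2.58 and 3.26 RPKM in BryGFP, with the same order. The list of membrane transporters and channels had 37 genes in the table, of which 17 were lower and 20 higher in ko cells, with a median ratio of 2.01; Slc30a2 and Slco4a1 are in it, and Fxyd6 is in none of the lists.

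Enzymes of sialic acid, lipid and cyclic nucleotide metabolism were represented by 4 genes. St8sia1, a sialyltransferase of ganglioside synthesis, had 0.297 and 0.490 RPKM in iDamko and 0.231 and 0.193 RPKM in Ainv18ko, against 3.63 and 3.62 RPKM in iDam and 1.28 and 1.10 RPKM in BryGFP. St6gal1, which adds sialic acid to galactose on glycoproteins, had 0.310 and 0.289 RPKM in iDamko and 0.583 and 0.378 RPKM in Ainv18ko, against 1.19 and 1.34 RPKM in iDam and 2.66 and 4.27 RPKM in BryGFP. The sialyltransferases were low in the ko lines alike and had opposite orders in wt cells, with St8sia1 higher in iDam and St6gal1 higher in BryGFP. St6gal1 overlaps BC106179, another gene of the table, and whether the authors counted by strand was not given in the sources used here, so reads of this pair cannot be told apart. Ptgs1, a cyclooxygenase that starts prostaglandin synthesis, had 0.371 and 0.405 RPKM in iDamko and 0.242 and 0.123 RPKM in Ainv18ko, against 1.19 and 1.25 RPKM in iDam and 1.12 and 1.11 RPKM in BryGFP; the 4 wt libraries lay within a narrow range, and the iDamko libraries were both above the Ainv18ko libraries. Pde1b, a calmodulin-dependent phosphodiesterase, had 0.150 and 0.313 RPKM in iDamko and 0.203 and 0.161 RPKM in Ainv18ko, against 1.02 and 2.44 RPKM in iDam and 0.578 and 0.503 RPKM in BryGFP. The list of metabolic enzymes had 32 genes in the table, 22 lower and 10 higher in ko cells, with a median ratio of 0.303.

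Kinases and cytoskeletal genes formed the last large group. Mylk, the myosin light chain kinase of contractile cells, had 0.385 and 0.302 RPKM in iDamko and 0.362 and 0.20 RPKM in Ainv18ko, against 1.52 and 2.04 RPKM in iDam and 0.804 and 0.843 RPKM in BryGFP. Nrk, a kinase known from placenta, had 0.617 and 0.284 RPKM in iDamko and 1.13 and 0.473 RPKM in Ainv18ko, against 2.48 and 1.24 RPKM in iDam and 2.95 and 6.37 RPKM in BryGFP, with wide spread in both genotypes. Myof, a ferlin of membrane repair that the cytoskeleton list holds by its symbol only, had 0.403 and 0.977 RPKM in iDamko and 0.594 and 0.949 RPKM in Ainv18ko, against 2.60 and 4.07 RPKM in iDam and 2.60 and 5.18 RPKM in BryGFP. For Nrk the lowest wt library was only slightly above the highest ko library, and for Myof the gap was wider. Tns1, a tensin that ties integrins to actin, ranged over 0.179 to 0.494 RPKM in ko libraries and 0.688 to 1.82 RPKM in wt libraries, and Synpo, an actin-binding protein of kidney podocytes, over 0.113 to 0.308 RPKM in ko libraries and 0.596 to 1.71 RPKM in wt libraries. Mrvi1, a partner of the inositol trisphosphate receptor in smooth muscle, ranged over 0.0957 to 0.606 RPKM in ko libraries and 0.912 to 2.70 RPKM in wt libraries, and Sntb1, a syntrophin of the dystrophin complex, over 0.129 to 0.268 RPKM in ko libraries and 0.922 to 1.80 RPKM in wt libraries. The gene listed as 1110012J17Rik, which GENCODE M21 names Mtcl1, a microtubule crosslinker, ranged over 0.390 to 0.558 RPKM in ko libraries and 1.03 to 3.54 RPKM in wt libraries. The list of actin, myosin and cytoskeleton genes had 19 genes in the table, 10 lower and 9 higher in ko cells, with a median ratio of 0.467, and Mylk was 1 of 8 listed kinase and phosphatase genes, of which 7 were lower and 1 higher.

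The other lists drawn up by role held few or none of the 42 genes. Unc5c was 1 of 25 cell adhesion and junction genes in the table, 14 lower and 11 higher in ko cells. None of the 42 was among the 7 cytokine and chemokine genes (4 lower, 3 higher) or the 11 receptor tyrosine kinase and growth factor genes (6 lower, 5 higher). The same held for the 14 small GTPase genes (8 lower, 6 higher). The list of blood genes known to be bound by or to depend on RUNX1 had only 1 gene in the table, Myl9. It was lower in ko cells, was not among the 42, and is also in the smooth muscle and mesenchyme list. That list is not complete. It names Gfi1b but not Gfi1, which is among the single genes that the rule leaves out, so the count says little about RUNX1 targets in general.

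Of the remaining genes, Kctd12b, of the KCTD family, had the third highest wt mean. It had 1.70 and 2.32 RPKM in iDamko and 1.90 and 1.90 RPKM in Ainv18ko, against 15.7 and 15.1 RPKM in iDam and 4.25 and 5.85 RPKM in BryGFP. Its iDam libraries were far above its BryGFP libraries, and the 4 ko libraries were within a narrow range. Rprm, a mediator of cell cycle arrest induced by p53, had 1.15 and 1.62 RPKM in iDamko and 1.54 and 1.16 RPKM in Ainv18ko, against 8.42 and 4.68 RPKM in iDam and 4.65 and 4.59 RPKM in BryGFP, where 3 wt libraries were nearly equal and 1 iDam library was higher. Emp1 had 0.320 and 0.435 RPKM in iDamko and 0.425 and 0.412 RPKM in Ainv18ko, against 1.09 and 1.91 RPKM in iDam and 3.51 and 6.77 RPKM in BryGFP, with BryGFP above iDam. Rnf144b, an E3 ubiquitin ligase, had 0.205 and 0.395 RPKM in iDamko and 0.279 and 0.347 RPKM in Ainv18ko, against 1.31 and 2.58 RPKM in iDam and 0.572 and 0.681 RPKM in BryGFP, and here the BryGFP libraries were the ones close to the ko range. Gm266, Gm53 and AW551984 carry no role in the sources used here. Gm266 had 0.684 and 1.41 RPKM in iDamko and 1.08 and 1.11 RPKM in Ainv18ko, against 10.3 and 9.77 RPKM in iDam and 7.60 and 5.27 RPKM in BryGFP. It was the fifth highest by wt mean, and both wt lines were far above both ko lines. AW551984 ranged over 0.199 to 0.262 RPKM in ko libraries and 0.832 to 1.68 RPKM in wt libraries.

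The deepest relative loss was that of Gm53. It had 0.0486 and 0.0980 RPKM in iDamko and 0.0554 and 0.0635 RPKM in Ainv18ko, against 1.83 and 1.48 RPKM in iDam and 0.970 and 1.37 RPKM in BryGFP. No ko library reached 0.1 RPKM, and both iDam libraries were above both BryGFP libraries. Its folds in the authors' deposited table were 19.4-fold lower in ko than in iDam and 15.6-fold lower than in BryGFP. The deposited table calls Gm53 protein-coding and GENCODE M21 a lincRNA. It lies beside the HoxB genes of the table (GRCm38 chr11:96251105-96264868, plus strand), 6.59 kb from Hoxb9 and 0.296 kb from Mir196a-1. HoxB genes outside the table were not placed, and how the authors annotated this stretch is not known here. The 7 HoxB genes in the table, Hoxb2 and Hoxb4 to Hoxb9, were all lower in ko cells. Their ratio of ko to wt mean was 0.0488 for Hoxb9, 0.105 for Hoxb8, 0.119 for Hoxb7, 0.0861 for Hoxb6, 0.190 for Hoxb5, 0.362 for Hoxb4 and 0.255 for Hoxb2. Among these 7 genes the ratio was lowest at Hoxb9, the nearest to Gm53, and higher toward Hoxb4 and Hoxb2, without being strictly ordered. Sp6 lies on the far side, 0.749 Mb from Gm53 (GRCm38 chr11:97013394-97024734, plus strand), with a ratio of 0.125.

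**Figure D2:**
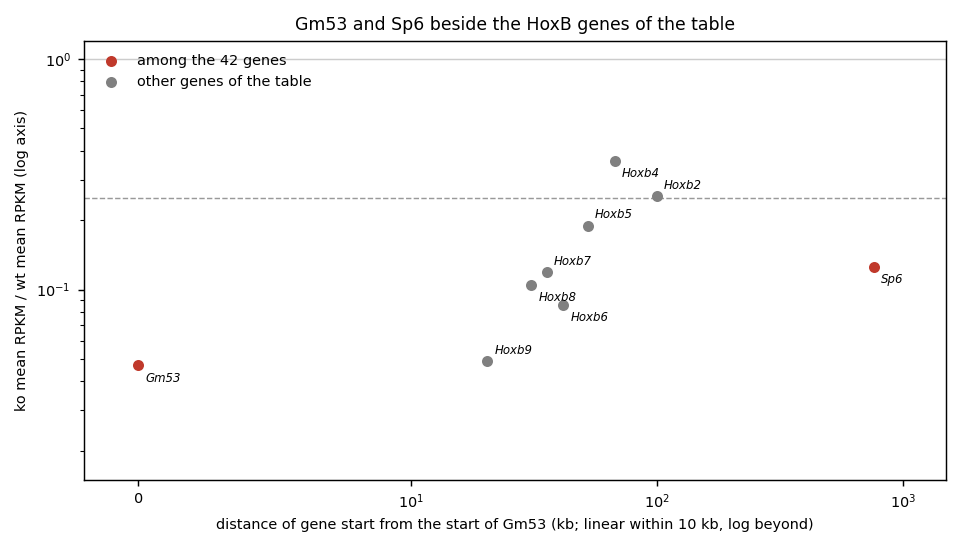
Ratio of ko mean to wt mean RPKM (log axis) against the distance of each gene's start from that of Gm53 in kb (linear within 10 kb, log beyond), for the protein-coding rows of the table within 1 Mb; red points are among the 42 genes and grey points are HoxB genes. Gm53 and Hoxb9 have the lowest ratios, 0.0470 and 0.0488, and Hoxb4 and Hoxb2 lie above the dashed line at 0.25.

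Other neighbours within 1 Mb were also in the table. Fas (GRCm38 chr19:34290666-34327772, plus strand) lies 0.0351 Mb from the smooth muscle actin gene Acta2, which had a ratio of 0.121, against 0.198 for Fas. Slc30a2 lies 0.0136 Mb from Trim63, a muscle ubiquitin ligase gene with a ratio of 0.0668. Olfml1 lies 0.00411 Mb from Ppfibp2 and 0.0188 Mb from Syt9, with ratios of 0.379 and 0.226. Neighbours did not always move the same way. Slco4a1 lies 0.122 Mb from Gata5, and Fxyd6 0.316 Mb from Mpzl2, and both neighbours were higher in ko cells, with ratios of 8.44 and 20.6. By chromosome, 4 of the 42 genes (9.52%) lie on X, namely Kctd12b, Nrk, Elf4 and Cysltr1, against 4.32% of annotated coding genes and 3.31% of the coding genes in the table. Chromosome 15 also holds 4 (9.52%), against 3.58% and 3.86% in the same order. Chromosome 2 holds 5 (11.9%), against 8.40% and 8.09%, and chromosome 8 holds 4. These shares are a description with no test.

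Whether each line pair shows the loss on its own was asked next. The ratio was at most 0.25 for iDamko over iDam in 32 of the 42 genes and for Ainv18ko over BryGFP in 34, and in both pairs in 24, against 27% of the 622 genes for both; the rule used this contrast, so nothing is read from the counts. The median ratio was 0.198 for iDamko over iDam and 0.168 for Ainv18ko over BryGFP. The authors' comparisons share all 4 ko libraries. In the authors' deposited table the folds ran from 2.13 to 19.4 against iDam and from 2.02 to 25.4 against BryGFP.

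**Figure D3:**
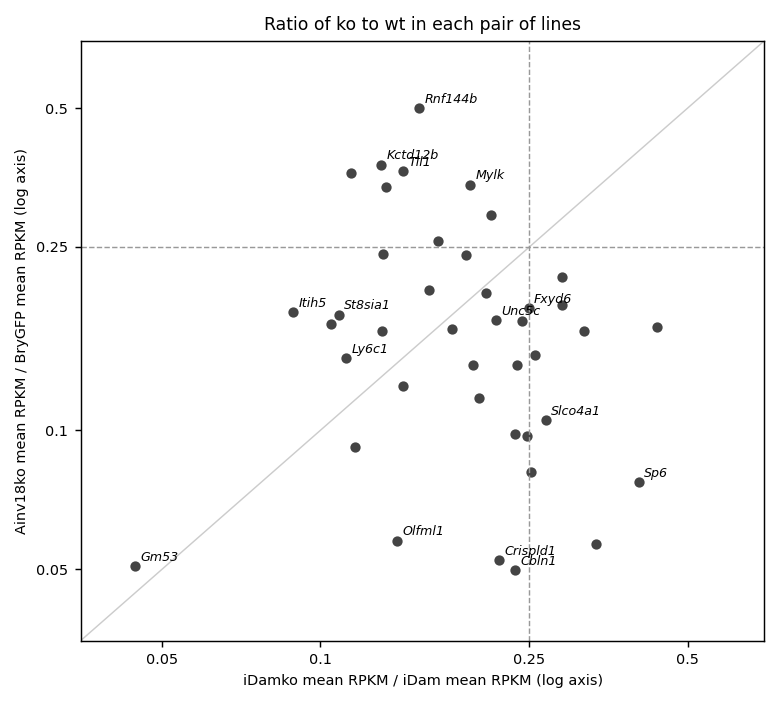
Ratio of line means, iDamko over iDam on the x axis and Ainv18ko over BryGFP on the y axis, both on log axes, for 41 of the 42 genes; dashed lines mark 0.25 and the grey line marks equal ratios. Gm53 is lowest along the diagonal, Olfml1, Cbln1, Crispld1 and Sp6 lie below it, and Rnf144b, Kctd12b, Tll1 and Mylk above it.

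How the 42 genes differ between lines of 1 genotype was tested with limma on log2(RPKM + 1), with p-values adjusted over the 454 genes of the table that averaged at least 0.5 RPKM. Log2 differences on this scale understate changes of weak genes. Between the wt lines, 21 of the 42 genes passed an adjusted p of 0.05, and 25.8% of the 454 genes tested did. Of the 21, 8 were higher in iDam than in BryGFP (background 7.93%) and 13 lower (background 17.8%). The rule asked for a wt mean of at least 1 RPKM over both lines, and 16 of the 42 genes had a mean under 1 RPKM in 1 of the wt lines and reached the limit through the other. Of the 21 genes that passed, 14 were of that kind, among them Cbln1, Crispld1, Slco4a1, Olfml1 and Sp6 through BryGFP and Pde1b, Rnf144b and Tll1 through iDam. The difference between the wt lines thus helped to choose them, so the count is not read against the background. For the same reason their adjusted p is not support for a difference, and the values of single genes are given as sizes beside their spread.

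The genes lower in iDam included Olfml1, Sp6, Foxf1a, Slc30a2, Slco4a1, Emp1, Cbln1, 1110012J17Rik, St6gal1, Crispld1, Cysltr1 and Tmem119. Olfml1 differed by -1.78 ± 0.22 (SE, limma, adjusted p = 0.00138), with line means of 0.711 RPKM in iDam and 5.05 RPKM in BryGFP. Sp6 differed by -1.76 ± 0.16 (SE, limma, adjusted p = 0.000306), and Foxf1a by -1.57 ± 0.37 (SE, limma, adjusted p = 0.0162). Slc30a2 differed by -1.44 ± 0.30 (SE, limma, adjusted p = 0.0107) and Slco4a1 by -1.28 ± 0.16 (SE, limma, adjusted p = 0.00138). The transcription factor genes Sp6 and Foxf1a and the zinc and organic anion transporter genes were thus all lower in iDam than in BryGFP. Foxf1a did not pass with a pseudocount of 0.1 RPKM, where limma's adjusted p was 0.0518, nor without iDam library 2 (0.0909), BryGFP library 1 (0.0529) or BryGFP library 2 (0.126). Slc30a2 did not pass without iDam library 1 (limma's adjusted p 0.0623) or BryGFP library 2 (0.091).

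The genes higher in iDam were Kctd12b, St8sia1, Rnf144b, Pde1b, Tll1, Ly6c1, Mylk and Itih5. Kctd12b differed by 1.45 ± 0.21 (SE, limma, adjusted p = 0.00199), with line means of 15.4 RPKM in iDam and 5.05 RPKM in BryGFP. St8sia1 differed by 1.08 ± 0.15 (SE, limma, adjusted p = 0.00192), Rnf144b by 0.82 ± 0.20 (SE, limma, adjusted p = 0.0189), Pde1b by 0.78 ± 0.22 (SE, limma, adjusted p = 0.0338) and Tll1 by 0.68 ± 0.12 (SE, limma, adjusted p = 0.00606). Itih5, Ly6c1 and Mylk followed with differences of 0.60 ± 0.12, 0.66 ± 0.13 and 0.60 ± 0.15 (SE). Pde1b did not pass with a pseudocount of 0.1 RPKM (limma's adjusted p 0.0574), quantile normalization (0.0549) or no trend (0.056), nor without iDam library 2 (0.114), BryGFP library 1 (0.112) or BryGFP library 2 (0.174). Rnf144b did not pass without iDam library 2 (limma's adjusted p 0.0738), BryGFP library 1 (0.0935) or BryGFP library 2 (0.09). The most abundant genes, Fxyd6 and Unc5c, did not pass, with differences of -0.46 ± 0.26 (SE, limma, adjusted p = 0.289) and 0.21 ± 0.23 (SE, limma, adjusted p = 0.614), and neither did Gm53, with 0.29 ± 0.14 (SE, limma, adjusted p = 0.187). The count of 21 fell to 13 without BryGFP library 2, and to 10 with a minimum mean of 1 RPKM, under which only 21 of the 42 genes are tested.

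Between the ko lines none of the 42 genes passed limma's adjusted p of 0.05, and none had an unadjusted p under 0.05. Of the 454 genes 2.64% passed the adjusted threshold, all of them lower in iDamko (0% higher), and 4.41% the unadjusted one. With a pseudocount of 0.1 RPKM the count among the 42 genes was also 0. Line means of iDamko and Ainv18ko were within 2-fold of each other in 39 of the 42 genes. The exceptions were Olfml1, with 0.0997 RPKM in iDamko and 0.291 RPKM in Ainv18ko, Cysltr1, with 0.122 and 0.269 RPKM in the same order, and Ptgs1, with 0.388 and 0.183 RPKM. The largest log2 difference was that of Unc5c, at 0.41 ± 0.23 (SE, limma, adjusted p = 1). The ko mean was under 0.5 RPKM in 32 of the 42 genes, which passed the filter on low values through their wt level, and 1 RPKM was added to each value. The count of 0 is therefore not read against the background, and a p that misses the threshold does not show that the ko lines are alike.

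**Figure D4:**
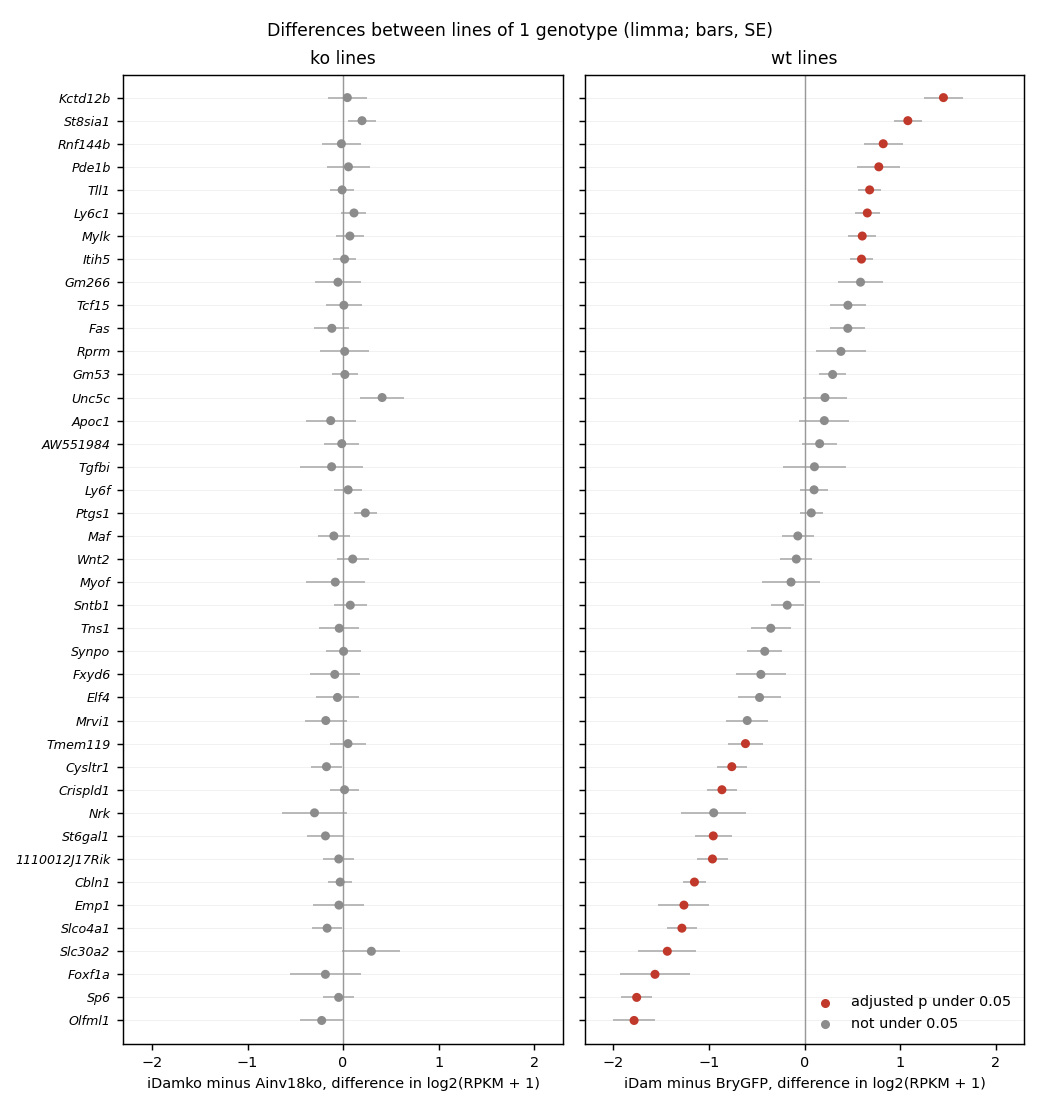
Difference in log2(RPKM + 1) for 41 of the 42 genes between the ko lines (left, iDamko minus Ainv18ko) and between the wt lines (right, iDam minus BryGFP), with bars for the SE from limma and red points for an adjusted p under 0.05, ordered by the wt difference. In the wt panel 20 points are red, from Kctd12b at 1.45 to Olfml1 at -1.78, and in the ko panel none is.

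The ko effect was also compared between the line pairs, as iDamko minus iDam less Ainv18ko minus BryGFP. For 10 of the 42 genes the difference passed an adjusted p of 0.05 (limma), as it did for 8.81% of the 454 genes. Of these 10, 6 had a mean under 1 RPKM in 1 of the wt lines, and the contrast is made from values that the rule used, so the count is not read against the background. The fall was smaller in the iDamko pair for 7 genes (background 5.51%). These were Slc30a2, which differed by 1.73 ± 0.43 (SE, limma, adjusted p = 0.0435), Sp6 by 1.71 ± 0.23 (SE, limma, adjusted p = 0.00257), Olfml1 by 1.56 ± 0.31 (SE, limma, adjusted p = 0.022), Cbln1 by 1.12 ± 0.17 (SE, limma, adjusted p = 0.00559), Slco4a1, 1110012J17Rik and Crispld1. The fall was larger in the iDamko pair for 3 genes (background 3.30%), Kctd12b, which differed by -1.41 ± 0.29 (SE, limma, adjusted p = 0.0234), St8sia1 by -0.88 ± 0.21 (SE, limma, adjusted p = 0.0364) and Tll1 by -0.69 ± 0.17 (SE, limma, adjusted p = 0.0451). All 10 had also passed between the wt lines. The count rests on single libraries, falling to 3 without iDamko library 1, iDamko library 2, Ainv18ko library 1 or iDam library 2, to 2 without Ainv18ko library 2 and to 4 without BryGFP library 2, and it was 3 with a pseudocount of 0.1 RPKM. Sp6 and Cbln1 passed under every setting in which they were tested, and Cbln1 falls under a minimum mean of 1 RPKM. Both reached the rule's limit of 1 RPKM through BryGFP, so their passing under other settings is not support for a difference. Kctd12b, St8sia1, Tll1, Slc30a2, Olfml1 and Slco4a1 each missed the threshold under at least 1 setting.

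Libraries with the same number also tended to move together in the ko lines, though less often among the 42 genes than over all genes tested. Library 1 was above library 2 in both ko lines in 17 of the 42 genes, and library 2 above library 1 in both in 10, so 64.3% went the same way, against 73.1% of the 454 genes tested. Mrvi1 had 0.340 and 0.0957 RPKM in iDamko libraries 1 and 2, and 0.606 and 0.175 RPKM in Ainv18ko libraries 1 and 2. Synpo, Tns1, Nrk, Olfml1, Elf4, Maf and Cbln1 shared that order, and Slc30a2, Myof and Gm53 had the opposite one in both lines. Across the 42 genes the difference of library 2 and library 1 correlated between the ko lines with a Pearson r of 0.610, a description over genes of the same 4 libraries. Between Ainv18ko and iDam r was 0.667 and between iDamko and iDam 0.427, so this was not particular to the ko lines. With BryGFP it was -0.275 for iDamko, -0.201 for Ainv18ko and -0.0764 for iDam. The labels do not say what the numbers stand for.

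**Figure D5:**
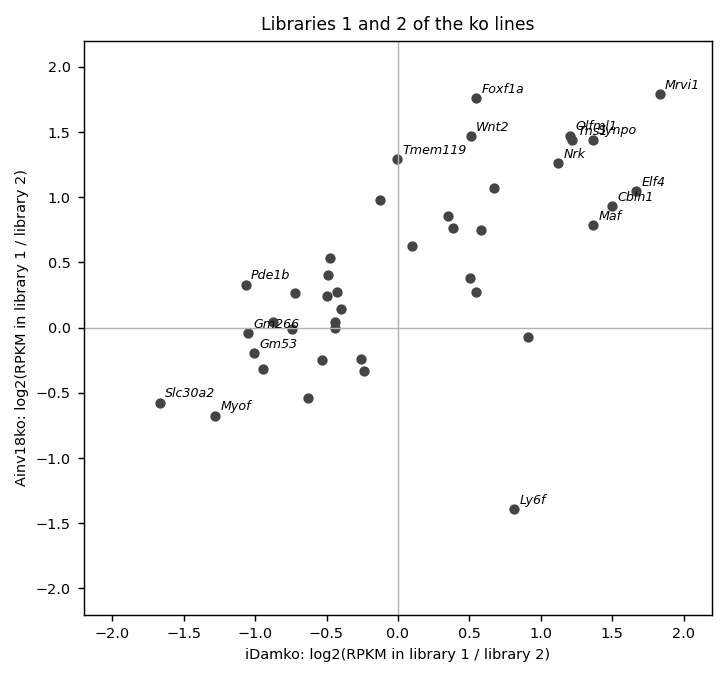
Log2 ratio of library 1 over library 2 for 41 of the 42 genes in iDamko (x axis) and Ainv18ko (y axis). Points in the upper right, such as Mrvi1, were higher in library 1 of both ko lines, and points in the lower left, such as Slc30a2 and Myof, were higher in library 2 of both.

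Marker genes of cell types in the table went in both directions, some lower in ko cells like the 42 genes and others higher. The smooth muscle and mesenchyme list had 6 of its 33 genes in the table, Acta2, Cspg4, Foxc1, Foxf1a, Myl9 and Pdgfrb, all lower in ko cells. Without Foxf1a, which is among the 42, the other 5 summed to 26.5 to 81.1 RPKM in ko libraries and 148 to 675 RPKM in wt libraries. Acta2 alone averaged 40.5 RPKM in ko libraries and 334 RPKM in wt libraries, so most of the sum was this gene. By line, the sum averaged 27.8 RPKM in iDamko, 70.7 in Ainv18ko, 152 in iDam and 578 in BryGFP. It had the order of the genes that were higher in BryGFP than in iDam. By line means Foxf1a and Mrvi1 shared that order, and Mylk had the opposite one. The part of the sum in the results for these and the other genes was not tested. The endothelial gene Clec14a was at 2.23 to 2.89 RPKM in ko libraries and 4.08 to 17.2 RPKM in wt libraries, with line means of 14.8 RPKM in iDam and 4.83 RPKM in BryGFP, the order of Kctd12b and Tll1. The 4 of 25 erythroid genes in the table were higher in ko cells and summed to 139 to 170.5 RPKM in ko libraries and 50.7 to 71.4 RPKM in wt libraries. Of 7 cardiac genes 5 were higher in ko cells, as were all 3 neural and 2 endoderm genes, and no mast cell gene was in the table. The other lists had few genes in the table, Ikzf2 for blood progenitors, Itgb3 for megakaryocytes and Dppa4 for pluripotent cells, all lower in ko cells, and Lgmn and Lyz2 for myeloid cells, which were split 1 lower and 1 higher. Since the table holds only genes that differ, markers outside it were not analysed here.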

How the data were processed

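RNA-seq of 8 libraries was analysed from 1 deposited table of 622 genes, already selected by the authors by FDR in 2 comparisons. EdgeR and the build mm9 are named in the submitters' processing notes. Aligner, counting step and annotation: not given in the sources used here. Per library, the authors deposited values taken here as RPKM, in which reads are divided by transcript length and by library total. The header names no unit. This scale was taken from the values, since the length they imply for each gene rose with annotated exon length (Pearson r of logs 0.601 over 540 genes). At the median the implied length was only 0.582 of the annotated exon length, so the unit remains an inference. For each comparison the authors also deposited a fold and a mean CPM, both on a log2 scale, with p-values and FDR; the sign of the log2 fold matched wt over ko in all 622 genes. The 4 ko columns stand in the table for each comparison, with identical values, and were used 1 time. Columns name lines and a number, so each was mapped to its line by name and not to 1 sample; the p-values measure the spread between these libraries.

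The members and gene lists were chosen with earlier results of these data known. Lists were made from symbol patterns. Genes named in full were, by rule, the 8 highest wt means, the 8 lowest ratios, up to 5 called members per direction in each line test, and up to 4 per role list; other members were described for completeness, and 1 of the 42 is not reported here by name or drawn. The values are not counts, so the edgeR test planned for counts was not used. Limma 3.58.1 in R 4.3.3 was fitted with a mean-variance trend to log2(RPKM + 1) of 454 genes that averaged 0.5 RPKM or more, with 1 mean per line and a shared spread, and Benjamini-Hochberg adjustment over these genes. All 42 members pass that filter by construction. Depth was estimated from the steps of low values, of which 77.8% to 100% of 8 to 36 per library fell within 0.06 of a whole read; it covers counting error only. On simulated data of the 454 genes, 200 of them changed, differences of 1 and 2 (log2) were recovered in 84% and 99% of genes between the wt lines, with 6 false calls. The ko lines gave 74% and 97%, and the difference between ko effects 59% and 90%, each with 2 false calls. The changed genes were drawn from all 454, with steps on log2(RPKM + 1). In 32 of the 42 genes the ko mean was under 0.5 RPKM, so these rates do not describe recovery at such low ko levels. Positions are those of GENCODE M21 on GRCm38, matched by gene ID for 41 genes and by symbol for Cbln1, and not those of mm9. Alternatives were other pseudocounts, filters, scalings and trends, a replicate block and each library left out.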

Additional observations from a re-analysis of the deposited data

Results flagged for a closer look

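Among the 84 groups of 4 libraries examined (42 genes in 2 genotypes), 3 held a library far from the others, and chance gives about 1 in 20. Unc5c was at 6.95 RPKM in iDamko library 2, above the other ko libraries. Ly6c1 was at 0.304 RPKM in iDamko library 1, above the other ko libraries. Rprm was at 8.42 RPKM in iDam library 1, above the other wt libraries. In each gene the ko libraries stayed below the wt libraries.

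The difference of the ko effect between the iDamko pair and the Ainv18ko pair passed an adjusted p of 0.05 (limma) in 10 genes. Of these, 6 had a mean under 1 RPKM in 1 of the wt lines, and the contrast is made from values that the rule used. Passing is therefore not support, and the values are given as sizes. In the Ainv18ko pair the line and the genotype cannot be told apart. On the log2(RPKM + 1) scale the iDamko effect minus the Ainv18ko effect was -1.41 ± 0.29 for Kctd12b, -0.88 ± 0.21 for St8sia1 and -0.69 ± 0.17 for Tll1 (SE), a larger fall in the iDamko pair. It was 0.88 ± 0.22 for Crispld1, 0.92 ± 0.23 for 1110012J17Rik, 1.12 ± 0.22 for Slco4a1, 1.12 ± 0.17 for Cbln1, 1.56 ± 0.31 for Olfml1, 1.71 ± 0.23 for Sp6 and 1.73 ± 0.43 for Slc30a2 (SE), a smaller fall in the iDamko pair. Each of these values is the difference between the ko lines less that between the wt lines. For Kctd12b the ko lines differed by 0.04 and the wt lines by 1.45. For Slc30a2 the ko lines differed by 0.30 and the wt lines by -1.44. Apart from Kctd12b, with 1.96 RPKM, the ko means of these genes were under 1 RPKM. What part the low ko levels have in these differences was not tested.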

How the results depend on the processing

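Alternatives were run for the 10 named genes with the largest differences between the wt lines and for 8 of the 10 whose ko effect differed, and none of these changed direction. Of the genes that differed between the wt lines, the count of 21 was 10 with a minimum mean of 1 RPKM, where fewer genes are tested, and 13 to 20 when each library was left out in turn, the lowest without BryGFP library 2. The ko lines gave 0 genes under every alternative that kept all libraries. The ko mean was under 0.5 RPKM in 32 of the 42 genes, so this does not show that the ko lines are alike. The count of 10 for the difference between ko effects was 3 with a pseudocount of 0.1 RPKM and 2 to 9 when each library was left out, which also lowers the number of samples in the fit and assumes that the lone library of that line varies like the other lines. The number of genes that the rule picks was 7 after quantile normalization over the table, which forces the libraries to 1 distribution although 387 genes are lower and 235 higher in ko cells, and 38 to 49 with each library left out. The median ratio was 0.209 when 0.1 RPKM was added to both means and 0.151 to 0.180 with each library left out. A fit with the library number as a replicate block gave 21, 0 and 9 genes for the wt lines, the ko lines and the difference between ko effects. Differences of library 2 and library 1 correlated over the 454 genes at 0.689 between iDamko and Ainv18ko, 0.396 between iDamko and iDam and 0.490 between Ainv18ko and iDam, and at -0.0383, 0.0020 and -0.175 between BryGFP and iDamko, Ainv18ko and iDam. The lines other than BryGFP thus moved together by number, and since BryGFP did not, the numbers were not taken to pair all the samples. Among the 10 named genes chosen by size, Kctd12b, Olfml1, Slco4a1, Sp6, St8sia1 and Tll1 differed between the wt lines under every setting in which they were tested. Of these, Olfml1, Slco4a1 and Sp6 reached the limit of 1 RPKM through BryGFP and Tll1 through iDam. The difference between the wt lines helped to choose those genes, so passing under other settings is not support for it.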
